A study of Rattus norvegicus with 38 samples.

Results

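Livers of Sprague-Dawley rats that had received lipopolysaccharide (LPS) and no plant extract were compared with control livers. LPS is a glycolipid from the outer membrane of gram-negative bacteria. The samples were chosen by their labels alone, as the 5 libraries of rats given LPS by intraperitoneal injection (LPS 1 to 5) and the 5 libraries labelled control (control 3 to 7), which is 10 of the 38 libraries of the series. The other 28 libraries came from rats given extracts by gavage, with or without LPS. They enter the filter on low counts, the scaling and the shared estimate of the spread. All livers were collected on day 28 and carry 1 batch label, and the samples are described as biological replicates. The dose of LPS, the time from injection to collection, a vehicle for the controls and the sex of the rats are not stated in the labels. The labels name both liver as the tissue and hepatocyte as the cell type, and no cell separation is described.

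LPS is carried by the plasma protein Lbp to Cd14 and the receptor Tlr4 with Ly96 on Kupffer cells, the resident macrophages of the liver, and on other cells. The cytokines that follow act on hepatocytes, which raise the secretion of positive acute-phase proteins through the transcription factors NF-kB, STAT3 and C/EBP and lower that of negative acute-phase proteins such as albumin and transthyretin. Inflamed liver is also known for reduced expression of transporters, cytochrome P450 enzymes and metabolic enzymes, and for the recruitment of neutrophils and monocytes.

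Promoter sequences are shown for 5 genes whose levels frame the results below. They are Lcn2, with a very large rise, Fgb and Hamp, acute-phase genes of which Fgb rose and Hamp did not pass the test, and the neighbouring chemokine genes Cxcl9 and Cxcl10, which moved in opposite directions. All but Lcn2 were chosen after their values were seen. Each line holds the 250 bases before the annotated gene start, 5′ to 3′ on the strand of the gene, from RefSeq on build GRCr8. Capitals mark matches, on either strand, to 4 motifs, which are STAT-type TTCNNNGAA, C/EBP-type TTGCNNAA, NF-kB-type GGG followed after any 3 bases by TTCC, and interferon response element-type GAAA followed after any 2 bases by GAAA. The stretches are chr3:36081781-36082030 (minus strand), chr2:170700876-170701125 (minus), chr1:95300272-95300521 (minus), chr14:16006916-16007165 (plus) and chr14:15988816-15989065 (plus).
Lcn2: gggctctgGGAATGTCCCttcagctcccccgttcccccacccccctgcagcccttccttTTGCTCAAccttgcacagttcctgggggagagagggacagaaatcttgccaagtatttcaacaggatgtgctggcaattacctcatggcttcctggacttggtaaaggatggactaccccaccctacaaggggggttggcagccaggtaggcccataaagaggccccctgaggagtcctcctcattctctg
Fgb: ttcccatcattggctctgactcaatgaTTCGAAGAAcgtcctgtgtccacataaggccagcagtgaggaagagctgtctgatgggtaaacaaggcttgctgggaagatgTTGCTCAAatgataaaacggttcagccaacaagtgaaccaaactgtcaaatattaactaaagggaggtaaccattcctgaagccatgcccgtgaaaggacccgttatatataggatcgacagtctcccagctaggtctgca
Hamp: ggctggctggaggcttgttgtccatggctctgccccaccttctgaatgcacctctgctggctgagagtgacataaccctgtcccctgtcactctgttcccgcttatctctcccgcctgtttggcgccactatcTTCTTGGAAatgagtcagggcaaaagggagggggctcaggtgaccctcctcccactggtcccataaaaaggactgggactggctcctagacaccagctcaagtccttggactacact
Cxcl9: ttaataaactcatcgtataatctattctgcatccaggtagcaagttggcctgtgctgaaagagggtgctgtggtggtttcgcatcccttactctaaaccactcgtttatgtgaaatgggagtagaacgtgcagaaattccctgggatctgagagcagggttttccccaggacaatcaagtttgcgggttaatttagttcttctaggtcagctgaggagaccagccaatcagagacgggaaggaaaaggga
Cxcl10: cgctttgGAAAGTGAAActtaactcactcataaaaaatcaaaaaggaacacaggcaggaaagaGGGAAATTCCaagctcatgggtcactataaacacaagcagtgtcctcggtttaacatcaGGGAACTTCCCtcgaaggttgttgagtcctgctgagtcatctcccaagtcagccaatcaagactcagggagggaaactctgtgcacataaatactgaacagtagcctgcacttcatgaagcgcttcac
The Lcn2 stretch held 1 NF-kB-type match and 1 C/EBP-type match. The Fgb stretch held 1 STAT-type and 1 C/EBP-type match, and the Hamp stretch held 1 STAT-type match 117 to 109 bases before the start. The Cxcl10 stretch held an interferon response element-type match and NF-kB-type matches 187 to 178 and 128 to 118 bases before the start, the latter formed by matches on both strands that overlap. The letters of these 4 motifs were not found in the Cxcl9 stretch. Among 24206 rat promoters with 1 entry per symbol, 7.44% held the STAT-type, 9.26% the C/EBP-type, 4.54% the NF-kB-type and 3.32% the interferon response element-type letters in the same window. Of the 9714 tested genes that had such an entry, 5.79% held the NF-kB-type letters, against 8.55% of 830 genes called at least 2-fold higher after LPS and 5.08% of 177 called at least 2-fold lower. The interferon response element-type letters stood in 2.84% of these tested genes, in 3.98% of those called at least 2-fold higher and in 6.78% of those called at least 2-fold lower. The STAT-type shares were 6.14%, 5.78% and 7.34%, and the C/EBP-type shares 7.98%, 9.16% and 6.78%. These shares describe letters, and a match is not a bound site.

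Depth ranged from 21563143 to 27076278 counted read pairs among the controls and from 23482464 to 27121056 among the LPS livers. At least 10 counts were found for 12969 to 13777 genes in control and 13702 to 14458 in LPS. The first principal component of log2 CPM (CPM, each count relative to the library total, scaled by trimmed mean of M values) held 47.6% of the variance of the 10 libraries and separated the groups, and the second held 16.6% and set control 5 and LPS 3 apart from the other 8. These 2 libraries also held transcripts of other tissues. Summed over 24 exocrine pancreas markers, control 5 stood at 4011 CPM and LPS 3 at 2308 CPM, against 9.87 CPM in the lowest control and medians of 13.2 CPM in control and 7.72 CPM in LPS. Prss1, trypsinogen, had 445 CPM in control 5 and 271 CPM in LPS 3, and 0 to 0.0383 CPM in the other libraries. Skeletal muscle markers summed to 590 CPM in LPS 3 and to 7.52 to 10.2 CPM in control. Acta1, skeletal muscle actin, had 156 CPM in LPS 3. Control 5 also had the highest control level of the bile duct keratins Krt7 (9.12 CPM) and Krt19 (37.5 CPM). Every list below was therefore also fitted without these 2 libraries. Counts of called members are from all libraries unless stated otherwise.

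**Figure D1:**
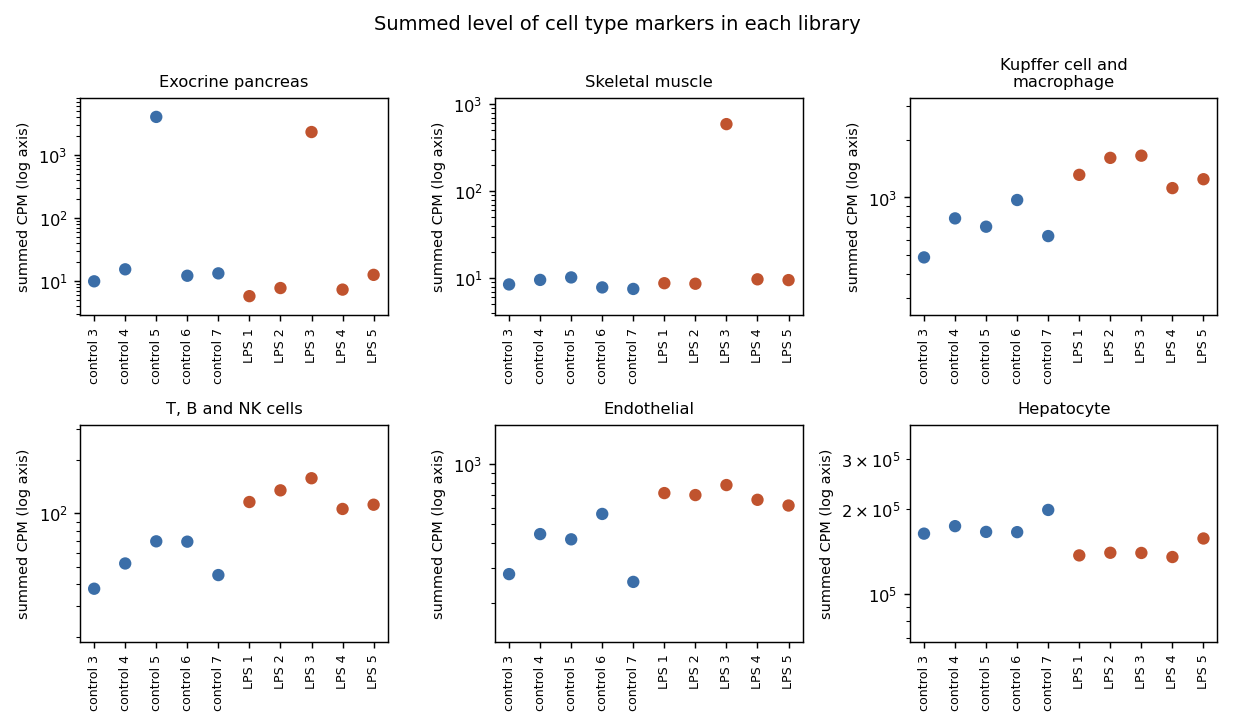
Summed CPM of 6 marker lists in each of the 10 libraries (log axes; blue, control; orange, LPS; 1 point per library). Control 5 and LPS 3 stand apart for exocrine pancreas (4011 and 2308 CPM) and LPS 3 for skeletal muscle (590 CPM), while macrophage, lymphocyte and endothelial sums are higher and the hepatocyte sum lower in all 5 LPS libraries.

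The labelled tissue was checked with marker genes. Hepatocyte markers made up 163307 to 198119 CPM in control and 134974 to 156983 CPM in LPS, so the groups did not overlap. With Alb left out they made up 62861 to 71264 CPM in control and 60077 to 73586 CPM in LPS, which overlap. That remainder still held Fgb, an acute-phase gene, with 6072 to 7866 CPM in control and 14715 to 25162 CPM in LPS. Of the 16 markers 9 were called lower and 1, Fgb, higher, beside 18.1% lower and 18.6% higher among all genes. Leaving out control 5 and LPS 3 gave 7 lower and 1 higher. Markers of other liver cells were present in every library. Kupffer cell and macrophage markers summed to 487 to 970 CPM in control and 1119 to 1652 CPM in LPS. Endothelial markers summed to 256 to 560 and 617 to 781 CPM, and markers of T, B and NK cells to 37.6 to 69.6 and 106 to 158 CPM. Neutrophil markers without Hp and Lcn2, which hepatocytes also make, summed to 15.9 to 39.8 and 137 to 205 CPM. In bulk liver, more cells of a type and more RNA per cell cannot be told apart, and neither can fewer cells and less RNA per cell. The part of these shifts in the results below was not tested.

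Of 14786 genes tested with edgeR's quasi-likelihood test, 5435 (36.8%) were called at an adjusted p under 0.05, 2752 higher in LPS (18.6%) and 2683 lower (18.1%). Without control 5 and LPS 3, 4633 of 14711 genes were called (31.5%). Of the genes tested both ways, 4431 were called both ways, 994 with all libraries alone and 200 without the pair alone, and 0 changed sign among those called both ways. The 5 control and 5 LPS libraries did not overlap for 3690 genes (25.0%), with LPS higher for 1850 and lower for 1840. The rises reached further than the falls. A rise of 2-fold or more was found for 1296 of the called genes and a fall of that size for 329, and changes of 16-fold or more for 41 and 4. The median log2 fold change of all genes was −0.00, and 0.13 with the total count as the scaling factor, where 72% of the calls were higher. Counts of a list below are read against these shares, log2 fold changes are LPS minus control with their standard error, and 5 values in a row are CPM in the order control 3 to 7 or LPS 1 to 5.

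**Figure D2:**
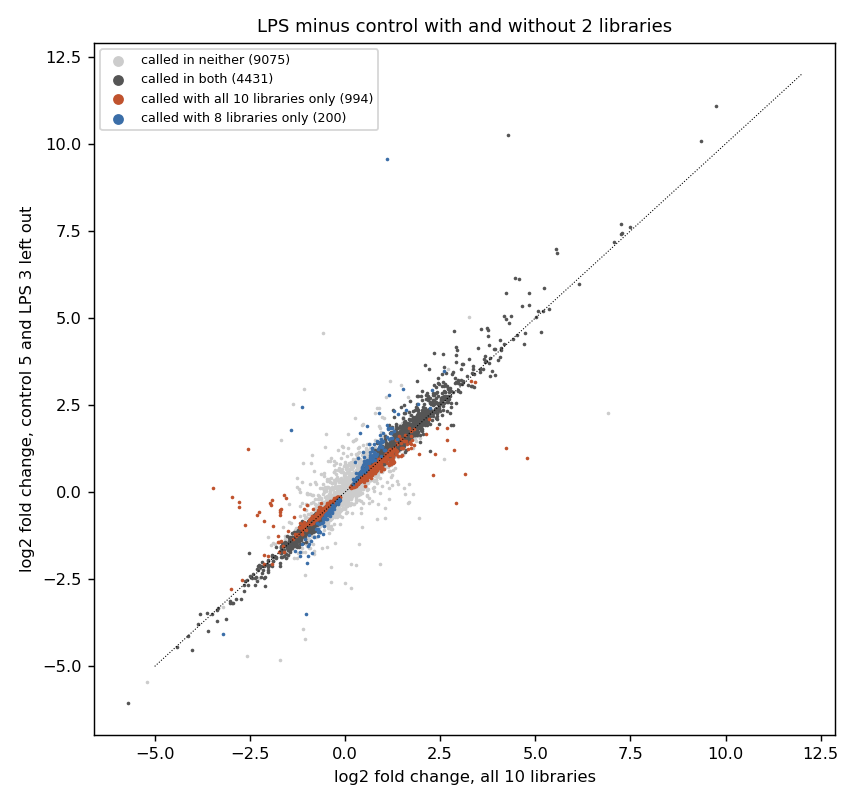
Log2 fold change (LPS minus control) of each gene tested both ways, with all 10 libraries (x axis) and with control 5 and LPS 3 left out (y axis); colours give whether the gene was called in neither, both or 1 of the fits. The 4431 genes called both ways lie near the dotted line of equal values, except a few above it, and the 994 genes called with all libraries alone include some, such as Krt7, near 0 on the y axis.

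LPS-sensing genes rose in part. Of 28 tested genes of LPS sensing and NF-kB feedback 14 were called higher and 0 lower (median 0.26). These counts were 11 and 1 without control 5 and LPS 3, and 7 and 0 with a replicate block. Lbp, which hands LPS to Cd14 (rn6 chromosome 3, 154786232 to 154812910), had 102, 160, 139, 132 and 140 CPM in control and 3795, 2288, 2950, 2630 and 2609 CPM in LPS. The groups were far apart, with LPS 1 the highest, and the log2 fold change was 4.41 ± 0.54 (adjusted p = 1.54e-06). Cd14, the co-receptor, rose by 1.89 ± 0.24, and Tlr2, the receptor of bacterial lipoproteins, by 2.68 ± 0.33 (adjusted p = 1.92e-06 and 1.5e-06). Ly96, the partner of Tlr4, rose by 0.95 and Ticam2, an adaptor of Tlr4, by 1.07. Tlr4 itself had 0.838 to 2.93 CPM in control and 1.35 to 2.4 CPM in LPS, groups that overlap (0.42 ± 0.28, adjusted p = 0.24). Myd88, the main adaptor of the pathway, stood at −0.00 (adjusted p = 0.998), and the NF-kB inhibitor genes Nfkbia and Tnfaip3 at −0.33 and 0.21 (adjusted p = 0.251 and 0.518). Other feedback genes were called higher, which were Nfkbie (0.61, adjusted p = 0.00629), Nfkbiz (0.79, adjusted p = 0.0299) and Tnip1 (0.25, adjusted p = 0.0241). Without control 5 and LPS 3 the calls of Nfkbiz and Tnip1 were lost (adjusted p = 0.0849 and 0.1).

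Most positive acute-phase genes rose. Of 24 tested, 17 were called higher and 3 lower (median 1.12), and the groups did not overlap for 17. A2m, a broad protease inhibitor that is a major acute-phase protein of the rat (chromosome 4, 154309426 to 154359138), had 0.931, 1.61, 1.49, 0.536 and 2.04 CPM in control and 344, 210, 124, 156 and 192 CPM in LPS. Every LPS liver was above every control by a wide margin, and the log2 fold change was 7.27 ± 0.97 (adjusted p = 2.78e-06). Orm1, the alpha-1-acid glycoprotein, rose by 3.08 ± 0.46, Kng1, a kininogen, by 2.63 ± 0.47 and Timp1, an inhibitor of matrix proteases, by 3.56 ± 0.44. Kng1 belongs to a family with near-identical copies, so its count is uncertain.

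Abundant plasma proteins rose by smaller factors. Fgb, the fibrinogen beta chain, had 6072, 7344, 6710, 6196 and 7866 CPM in control and 25162, 14715, 15542, 16714 and 15553 CPM in LPS (1.36 ± 0.24, adjusted p = 8.23e-05). Hp, haptoglobin, which binds free hemoglobin, had 8000 to 10237 CPM in control and 30830, 14628, 16880, 15826 and 15786 CPM in LPS (1.06 ± 0.20, adjusted p = 0.000115). In both genes LPS 1 stood above the other LPS livers, and the groups did not overlap. Fga and Fgg rose by 1.34 and 1.17, the heme carrier Hpx by 1.06 and the copper carrier Cp by 0.96. The 3 members called lower were the pentraxin Apcs (−0.32), Serpina3c (−0.90) of a serpin family with near-identical copies, and Vnn1 (−0.81), a pantetheinase. Crp, a pentraxin, stood at −0.14 (adjusted p = 0.392) and Saa4 at 0.15 (adjusted p = 0.595).

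Lcn2, an iron-sequestering protein made by hepatocytes and neutrophils (chromosome 3, 11414189 to 11417534), split the LPS group. It had 0.0931, 0.0383, 4.98, 1.19 and 0.0435 CPM in control and 2060, 27, 2271, 26.8 and 955 CPM in LPS. All LPS livers were above all controls, yet LPS 2 and LPS 4 lay far below LPS 1, 3 and 5. The log2 fold change was 9.74 ± 1.97 (adjusted p = 0.000291), and with limma voom the call was lost (adjusted p = 0.115). Reg3b, a lectin of the acute phase, also split, with 57.4, 6.26, 27.1, 5.18 and 6.29 CPM in LPS and 5.35 CPM in control 5, the highest control. Its log2 fold change was 4.28 (adjusted p = 0.00241), and the controls other than control 5 had 0 to 0.0466 CPM.

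Hamp, hepcidin, the hormone that blocks iron export, did not pass the test. It had 258, 173, 108, 101 and 219 CPM in control and 139, 314, 159, 246 and 35.2 CPM in LPS, which overlap fully (0.06 ± 0.57, adjusted p = 0.949). Other iron genes moved. Of 25 tested in the iron list, 12 were called higher and 4 lower (median 0.33), of which Hp, Hpx, Lcn2, Hmox1, Cd163 and Steap4 also belong to other lists. Bmp6, the ligand that drives hepcidin, rose by 1.13 (adjusted p = 0.000411), and the Bmp targets Smad6 and Id1 rose by 1.38 ± 0.18 and 1.21 (adjusted p = 1.92e-06 and 0.000951). Hfe, a regulator of hepcidin, fell by 0.69 ± 0.10 (adjusted p = 1.17e-05).

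**Figure D3:**
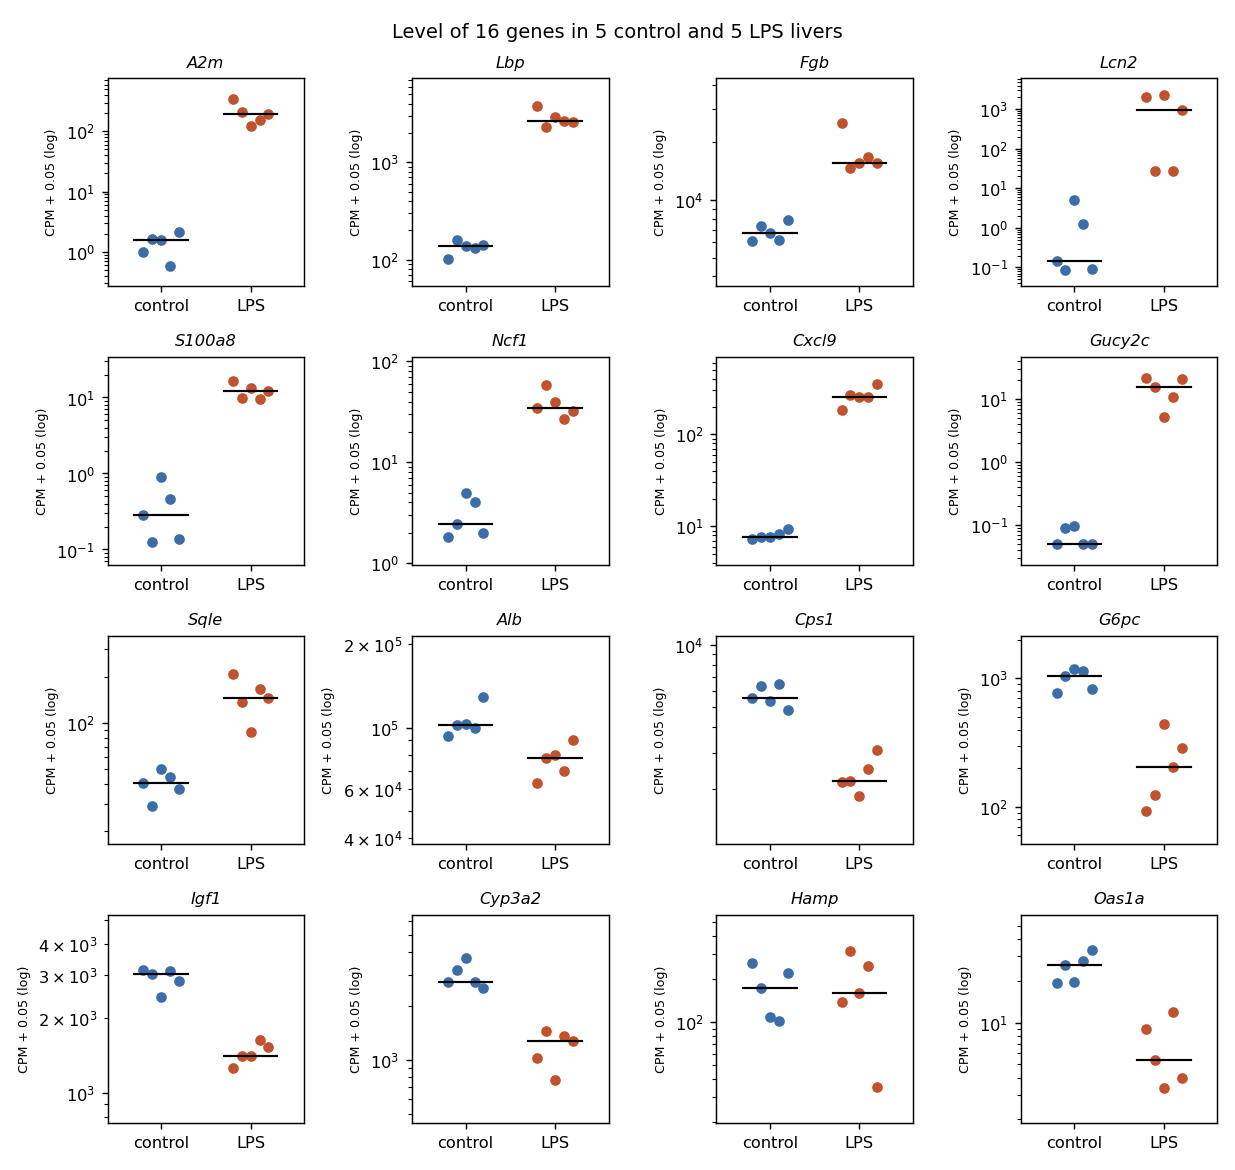
Level of 16 genes in 5 control (blue) and 5 LPS (orange) livers, as CPM + 0.05 on log axes; each point is 1 library and the black line the median of the group. A2m, Lbp and Cxcl9 are separated between the groups, Lcn2 lies at 26.8 to 2271 CPM among the LPS livers, and Hamp overlaps.

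Most genes of negative acute-phase and other plasma proteins fell. Of 20 tested genes of this list 14 were called lower and 0 higher (median −0.52). With total count scaling 11 were called lower and 2 higher (median −0.39), and with a replicate block 10 and 0. Without control 5 and LPS 3 the counts were 13 and 1. Alb, albumin, had 93251, 102331, 102776, 99797 and 128705 CPM in control and 63186, 78047, 79450, 70076 and 90252 CPM in LPS. The groups did not overlap, with control 7 the highest, and Alb fell by 0.47 ± 0.15 on the log2 scale (adjusted p = 0.0129). This call was lost with a replicate block (adjusted p = 0.118) and in a fit of the compared libraries alone without control 5 and LPS 3. Ttr, the thyroid hormone and retinol transporter, fell by 0.58, Rbp4, the retinol carrier, by 0.76 ± 0.14 and Ahsg, fetuin A, by 0.62 ± 0.14. Serpina7, the thyroxine-binding globulin, stood at 1.24 but did not pass the test (adjusted p = 0.0818), and Apoa1 and Apob stood at 0.24 and 0.28 (adjusted p = 0.146 and 0.0765).

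Cytokine and receptor genes rose in part, and the early cytokines Il6 and Tnf were barely detected. Il6 had counts in 2 of the 10 libraries, with at most 0.0396 CPM, and Tnf had at most 0.127 CPM, so neither was tested. Il1b had 2.51, 3.6, 4.42, 3.71 and 2.7 CPM in control and 17.3, 16.2, 19.5, 13.4 and 13.3 CPM in LPS (2.23 ± 0.30, adjusted p = 3.42e-06). All LPS livers were above all controls. Over the list, 13 of 23 tested genes were called higher and 1 lower (median 0.76). The decoy receptor Il1r2 rose by 4.06 ± 0.67, the oncostatin M receptor Osmr by 2.61, the shared beta receptor chain Csf2rb by 2.66 ± 0.39 and the kinase Jak3 by 2.03 ± 0.26.

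Stat3 and its feedback inhibitor Socs3 were highest in LPS 1. Socs3, which blocks signalling of the Il6 receptor chain, had 4.42 to 7.09 CPM in control and 66.9, 13.1, 16.9, 8.96 and 21.6 CPM in LPS (2.09 ± 0.63, adjusted p = 0.00935). The groups did not overlap, but without LPS 1 the call was lost (adjusted p = 0.0876). Stat3 had 79 to 87.8 CPM in control and 204, 106, 120, 126 and 138 CPM in LPS, which do not overlap, with a log2 difference of 0.76 ± 0.32 (adjusted p = 0.0575). LPS 1 was highest in both, as it was for Fgb, Hp and Lbp.

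Chemokines split in direction. Of 29 tested chemokine and receptor genes 14 were called higher and 3 lower (median 0.68). Leaving out control 5 and LPS 3 gave 10 higher and 3 lower of 28. Cxcl9, a T cell attractant (chromosome 14, 17228832 to 17233743), had 7.31, 7.71, 7.63, 8.2 and 9.43 CPM in control and 185, 268, 256, 256 and 354 CPM in LPS (5.03 ± 0.64, adjusted p = 1.75e-06). Its neighbours, which act on the same receptor Cxcr3, went down. Cxcl10 had 2, 3.03, 1.91, 3.13 and 2.74 CPM in control and 0.673, 0.948, 1.41, 0.857 and 0.633 CPM in LPS (−1.50 ± 0.33, adjusted p = 0.000798), and Cxcl11 fell by 0.54 (adjusted p = 0.00557). For all 3 genes the groups did not overlap. Ccl19, a ligand of Ccr7, rose by 3.01 ± 0.40, Cxcl16, the ligand of Cxcr6, by 1.94 ± 0.29 and Ccl2, a monocyte attractant, by 2.52 ± 0.59, with 0.14 to 0.465 CPM in control. Cxcl1, a neutrophil attractant, had 5.98 CPM in LPS 1 and 0.677 to 2.11 CPM in the other LPS livers, and did not pass the test (adjusted p = 0.201). Cxcr2, the receptor of Cxcl1 on neutrophils, rose by 3.73 ± 0.68 (adjusted p = 9.56e-05). Cxcl13, a B cell attractant, had 36.8 CPM in LPS 3, and its call (2.36 ± 0.65, adjusted p = 0.00523) was lost without control 5 and LPS 3 (1.09, adjusted p = 0.173).

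Genes of MHC class II rose. RT1-Da, a class II chain, had 52.8, 64.8, 61.1, 66.5 and 34.3 CPM in control and 140, 210, 161, 163 and 106 CPM in LPS (1.48 ± 0.27, adjusted p = 8.94e-05). The invariant chain Cd74 rose by 1.48 ± 0.23 and Ciita, the master regulator of class II genes, by 1.75 ± 0.31, and RT1-Db1, RT1-Ba, RT1-Bb, RT1-DMa and RT1-DMb rose by 1.15 to 1.83. In class I presentation RT1-A2, B2m, Tap1 and Nlrc5 were called lower, by 0.31 to 0.42, and with the total count as the scaling factor none of these 4 was called lower. The immunoproteasome subunit Psmb10 rose by 1.03 ± 0.18. Altogether 10 of 18 tested genes were called higher and 4 lower (median 0.74). These counts were 9 and 2 without control 5 and LPS 3. RT1 genes are near-identical and counts of single members are uncertain.

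Of 28 tested interferon-stimulated genes 14 were called lower and 3 higher (median −0.53), beside 18.1% lower among all genes, and without control 5 and LPS 3 the counts were again 14 and 3. Oas1a, a sensor of double-stranded RNA (chromosome 12, 41200680 to 41211393), had 19.2, 26, 19.6, 28 and 33.3 CPM in control and 8.99, 5.35, 3.33, 11.9 and 3.93 CPM in LPS (−1.91 ± 0.48, adjusted p = 0.00228). Irf7, the transcription factor that amplifies type I interferon, had 23.8 to 42.2 CPM in control and 11 to 18.1 CPM in LPS (−1.32 ± 0.37, adjusted p = 0.00518). Both groups of values are apart. Ifi27 fell by 1.32 ± 0.24, Usp18, a brake on interferon signalling, by 1.54 and the antiviral GTPase gene Mx2 by 1.41. The 3 called higher were Irf1 (0.68), Irf8 (0.78) and Gbp2 (2.12 ± 0.47). Ubd, a ubiquitin-like protein, had 33.9, 26.8, 28, 14.3 and 33.8 CPM in control and 391, 231, 677, 293 and 693 CPM in LPS (4.06 ± 0.91, adjusted p = 0.000847). Isg15 overlapped between the groups (−0.24 ± 0.30, adjusted p = 0.558).

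Most testable markers of neutrophils and phagocytes rose, and many other members were too low to test. Of 14 tested members of the list 13 were called higher and 0 lower (median 2.39). The filter on low counts takes all groups, so it can pass a gene on the libraries where it is high. Mmp8 and Padi4, for example, had 0 to 0.651 and 0 to 0.93 CPM in control. The count and the median of this list may thus partly follow from the filter, as in other lists with low members. S100a8, a subunit of calprotectin, had 0.233, 0.0767, 0.837, 0.412 and 0.0869 CPM in control and 16.5, 9.75, 13.2, 9.47 and 12.2 CPM in LPS (5.23 ± 0.73, adjusted p = 5.31e-06). S100a9 rose by 4.65 ± 0.68, Csf3r, the receptor of granulocyte colony-stimulating factor, by 4.22 ± 0.65 and the collagenase Mmp8 by 4.18 ± 0.69. Ncf1, a subunit of the phagocyte oxidase (chromosome 12, 25497104 to 25506300), had 1.77, 2.38, 4.88, 3.96 and 1.96 CPM in control and 34.3, 57.6, 39.4, 26.6 and 32 CPM in LPS (3.67 ± 0.42, adjusted p = 7.3e-07). Control 5 was the highest control in all of these genes. Mpo, the peroxidase of primary granules, had at most 0.186 CPM in any library and was not tested, and neither were the granule genes Elane, Prtn3, Ctsg, Camp, Ltf and Ngp and the receptor genes Fpr1 and Fpr2. Padi4, a histone-modifying enzyme, was the tested member not called (1.53, adjusted p = 0.0562), and it was called without control 5 and LPS 3 (adjusted p = 0.00211).

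Receptors of myeloid cells were called higher in 18 of 20 tested members of the Siglec and Fc receptor list and lower in 0 (median 1.92). Siglec10, an inhibitory receptor, rose by 4.02 ± 0.47 (adjusted p = 8.49e-07), the beta-glucan receptor Clec7a by 3.10 ± 0.50, the inhibitory Lilrb4 by 3.07 ± 0.52 and the amplifying receptor Trem1 by 3.91. Adhesion genes followed with 12 of 14 called higher and 0 lower (median 1.70), among them the integrin chains Itgam (2.96 ± 0.52), Itgal (2.22 ± 0.32) and Itgb2 (1.80 ± 0.33). C5ar1, the receptor of the complement fragment C5a, rose by 2.78 ± 0.35.

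Some macrophage genes rose and others overlapped between the groups. Of 21 tested Kupffer cell and macrophage markers 12 were called higher and 0 lower (median 0.93). These counts were 10 and 0 without control 5 and LPS 3. Adgre1, the F4/80 antigen, had 4.33, 9.74, 9.21, 14.5 and 5.96 CPM in control and 41.3, 148, 177, 51.7 and 38.7 CPM in LPS (3.38 ± 0.51, adjusted p = 1.17e-05). LPS 2 and LPS 3 were the highest, and the groups did not overlap. Lyz2, lysozyme, rose by 2.26 ± 0.49, Cd5l by 1.71 ± 0.39 and the scavenger receptor Msr1 by 1.63 ± 0.30. Clec4f, a lectin of resident Kupffer cells in rodents, had 93.4 to 162 CPM in control and 77.2 to 129 CPM in LPS, which overlap (−0.30 ± 0.28, adjusted p = 0.418). C1qa, C1qb and C1qc, the chains of complement C1q that macrophages make, stood at −0.19, 0.15 and 0.09 (adjusted p = 0.423, 0.556 and 0.745).

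Some lymphocyte markers rose from low levels. Of 18 tested T, B and NK cell genes 11 were called higher and 1 lower. Cd3e, a chain of the T cell receptor complex, had 0.422 to 1.16 CPM in control and 1.12 to 2.26 CPM in LPS (1.24 ± 0.27, adjusted p = 0.000627), and the groups overlap by 1 liver on each side. Cd4, which rat macrophages also carry, rose by 1.27 ± 0.23 and Cd8b by 2.16 ± 0.39, while Cd8a, the partner chain of Cd8b, overlapped between the groups (0.18 ± 0.22, adjusted p = 0.545). The cytotoxic genes Gzma, Nkg7 and Ncr1 were not called (−0.57, 0.04 and −0.69), and Prf1, perforin, fell by 0.66 (adjusted p = 0.0308).

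Endothelial and matrix genes rose in part. Of 20 tested endothelial genes 13 were called higher and 0 lower (median 0.82). Eng, a coreceptor of TGF-beta and Bmp, had 58.2 to 90.1 CPM in control and 117 to 184 CPM in LPS (1.12 ± 0.14, adjusted p = 1.54e-06), and Pecam1 had 11.5 to 22.7 and 31 to 50.1 CPM (1.23 ± 0.19, adjusted p = 1.79e-05). Neither gene overlapped between the groups. Among genes of liver sinusoidal endothelium, Gpr182 had 20.4 to 32.1 CPM in control and 37.8 to 45.8 CPM in LPS (0.71 ± 0.12, adjusted p = 6.64e-05), and Stab1, Stab2, Lyve1 and Clec4g were not called (0.23, 0.53, 0.49 and −0.80). Of 20 stellate cell and matrix genes 10 were called higher and 0 lower (median 0.57). Leaving out control 5 and LPS 3 gave 8 higher and 0 lower. Col4a1, of basement membranes, rose by 2.12 ± 0.31 and Pdgfrb by 1.54 ± 0.22, whereas Col1a1, the fibrillar collagen, overlapped (1.19 ± 0.66, adjusted p = 0.158), with 68 CPM in control 5 and 129 CPM in LPS 3. The stellate marker Lrat and the smooth muscle actin Acta2 were not called (−0.13 and 0.34).

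Matrix proteases and their inhibitors had 14 of 21 called higher and 0 lower (median 1.08). Mmp3, stromelysin, had 612 counts in the 5 LPS libraries and 3 in the 5 controls, a ratio of 181 with an exact 95% counting interval of 61.6 to 880. Eicosanoid genes had 10 of 19 called higher and 1 lower (median 1.21), among them Ptgs1 (1.69 ± 0.31), thromboxane synthase Tbxas1 (2.05 ± 0.32) and Pla2g7 (3.75 ± 0.55), which degrades platelet-activating factor. Ptgs2, the inducible cyclooxygenase, was not called (1.19, adjusted p = 0.161).

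Gucy2c, the guanylate cyclase that binds guanylin and bacterial enterotoxin in the gut (chromosome 4, 170659993 to 170740274), had 0, 0.0383, 0.0465, 0 and 0 CPM in control and 20.9, 15.5, 5.03, 10.6 and 20.6 CPM in LPS. All LPS livers were above all controls, with 1883 counts against 2, a ratio of 835 and an exact 95% counting interval of 231 to 6900. Its gut ligands Guca2a and Guca2b were too low to test. Of 10 intestinal epithelium markers 3 could be tested, and Cdh17, a cadherin of gut epithelium, was the 1 called higher, with 3.03, 46.2, 21.9, 22.2 and 5.96 CPM in control and 257, 140, 55.2, 112 and 95.1 CPM in LPS (2.73 ± 0.65, adjusted p = 0.00144). Fabp2 and Vil1 were not called (0.33 and −1.01), and Cdx1, Cdx2, Muc2, Lgals4 and Alpi were too low to test. In the natriuretic branch of the cyclase family, Npr1 rose by 0.84 ± 0.15. Npr3, the clearance receptor, was called lower (−0.84 ± 0.31, adjusted p = 0.0316), a call lost in 5 omissions of 1 library.

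Most cholesterol synthesis genes rose. Of 20 tested enzymes 16 were called higher and 0 lower (median 1.09), and without control 5 and LPS 3 17 and 0. Sqle, squalene epoxidase (chromosome 7, 99609929 to 99624803), had 40.7, 28.9, 50.4, 44.4 and 37.1 CPM in control and 207, 137, 86.8, 165 and 145 CPM in LPS (1.88 ± 0.28, adjusted p = 8.5e-06). Msmo1, a sterol methyl oxidase, had 88.4 to 157 CPM in control and 686, 489, 272, 587 and 487 CPM in LPS (1.97 ± 0.30, adjusted p = 1.16e-05). LPS 3 was the lowest LPS liver in both, and the groups did not overlap. Acat2 rose by 1.90 ± 0.32, Mvd by 1.85 ± 0.29 and Idi1 by 1.72.

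Among regulators of sterols, 9 of 18 were called higher and 2 lower (median 0.27). Srebf2, the transcription factor of the pathway, rose by 0.76 ± 0.12. The cholesterol exporter Abcg1, which macrophages also carry, rose by 1.74 ± 0.25. Insig1 and Insig2, which retain the precursor of Srebf2 in the ER, were not called (−0.41 and −1.12, adjusted p = 0.268 and 0.0584). Of 23 lipogenesis genes 9 were called lower and 1 higher (median −0.62), Fasn, fatty acid synthase, overlapped (0.05 ± 0.38, adjusted p = 0.935), and the desaturase Fads2 and the elongase Elovl5 fell by 1.27 ± 0.28 and 1.16 ± 0.20.

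Bile acid genes and transporters fell more often than they rose. Of 16 bile acid genes 6 were called lower and 3 higher (median −0.44). Baat, which conjugates bile acids, fell by 0.95 ± 0.14, whereas Cyp7a1, the rate-limiting enzyme, overlapped between 35.6 to 156 CPM in control and 56 to 106 CPM in LPS (−0.42 ± 0.52, adjusted p = 0.555). Of 17 transporters 8 were called lower and 3 higher (median −0.31). Slc10a1, the bile acid importer of the sinusoid, had 685, 705, 774, 648 and 773 CPM in control and 365, 394, 442, 360 and 499 CPM in LPS (−0.80 ± 0.17, adjusted p = 0.000428), groups that do not overlap. The importer gene Slco1b2 fell from 698 to 831 CPM in control to 264 to 493 CPM in LPS. The bile salt export pump gene Abcb11 fell by 0.70 ± 0.15 and the canalicular exporter Abcc2 by 1.24. The drug exporter Abcb1b rose by 2.54 and the basolateral exporter Abcc3 by 1.04 (adjusted p = 0.00305 and 0.0062).

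Many drug metabolism genes fell. Of 37 cytochrome P450 and related genes 15 were called lower and 1 higher (median −0.57). Of 23 genes listed with the conjugating enzymes 17 were called lower and 0 higher (median −0.74), beside 18.1% lower among all genes. Leaving out control 5 and LPS 3 gave 13 and 1 for the first list and 14 and 0 for the second. Cyp3a2 (chromosome 12, 11641500 to 11677818), a steroid and drug hydroxylase, had 2716, 3173, 3745, 2728 and 2539 CPM in control and 1023, 1458, 767, 1354 and 1273 CPM in LPS (−1.34 ± 0.34, adjusted p = 0.00219). Cyp2c23 fell by 0.94 ± 0.15, Cyp4f1 by 0.78 ± 0.13 and Por, the reductase that feeds electrons to P450 enzymes, by 1.04 (adjusted p = 0.0225). Cyp2c11, of a family with near-identical copies, fell by 1.14 ± 0.36 (adjusted p = 0.0134), and without control 5 and LPS 3 the value was −0.99 (adjusted p = 0.0522). Cyp1a2 and Cyp2e1 were not called (0.10 and −0.41). The conjugating enzyme genes Ugt2b35 and Sult1c3 fell by 0.74 ± 0.11 and 0.84 ± 0.17, and Ephx1, an epoxide hydrolase of the same list, fell by 1.23 ± 0.24.

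Transcription factors of the hepatocyte were lower in part. Of 26 tested 10 were called lower and 1 higher (median −0.38). These counts were 8 and 0 without control 5 and LPS 3. Hnf4a, a central regulator of hepatocyte genes, had 607, 568, 461, 638 and 627 CPM in control and 312, 361, 332, 407 and 387 CPM in LPS (−0.69 ± 0.14, adjusted p = 0.000287). Cebpb, a factor of the acute phase, fell by 0.71 ± 0.20 (adjusted p = 0.00549), and Cebpd stood at 0.80 (adjusted p = 0.0707). Ppara overlapped (−0.11 ± 0.26, adjusted p = 0.763).

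Most genes of amino acid and nitrogen metabolism fell. Of 33 tested amino acid catabolism genes 26 were called lower and 0 higher (median −0.80). These counts were 22 and 0 without control 5 and LPS 3. Sds, which deaminates serine (chromosome 12, 41620429 to 41627741), had 164, 741, 252, 661 and 302 CPM in control and 21.1, 13, 3.26, 62.1 and 73.2 CPM in LPS (−3.62 ± 0.97, adjusted p = 0.00399). Bhmt, which remethylates homocysteine, had 2208 to 3289 CPM in control and 615, 557, 615, 604 and 1397 CPM in LPS (−1.91 ± 0.33, adjusted p = 4.89e-05), with LPS 5 well above the other LPS livers. In the urea cycle list 8 of 13 were called lower and 0 higher (median −0.64). Leaving out control 5 and LPS 3 gave 7 lower and 2 higher of 12 tested genes of the urea cycle list. Cps1, its entry enzyme (chromosome 9, 74113437 to 74236274), had 5500, 6293, 5322, 6450 and 4842 CPM in control and 2176, 2189, 1857, 2507 and 3104 CPM in LPS (−1.26 ± 0.20, adjusted p = 1.73e-05). Otc fell by 0.75 ± 0.13 and the ornithine carrier Slc25a15 by 0.99 ± 0.21.

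Most gluconeogenesis genes fell. Of 16 gluconeogenesis genes 10 were called lower and 1 higher (median −0.68). G6pc, which releases glucose (chromosome 10, 89286009 to 89296213), had 768, 1039, 1175, 1146 and 826 CPM in control and 93.4, 123, 443, 203 and 290 CPM in LPS (−2.10 ± 0.57, adjusted p = 0.00423). Pck1 fell by 1.05 ± 0.28, Fbp1 by 0.81 ± 0.15 and Pc by 0.97 ± 0.15, while the mitochondrial Pck2 rose by 0.69 (adjusted p = 0.00174). Among 26 glycolysis and glycogen genes 10 were called lower and 4 higher (median −0.15). Gckr, a regulatory protein of glucose phosphorylation, fell by 1.32 ± 0.26. The 4 that rose were the hexokinases Hk1 (1.06 ± 0.21), Hk2 (2.55) and Hk3 (1.12) and the pyruvate kinase Pkm (2.31), isoforms also found outside hepatocytes.

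Fatty acid oxidation fell in 25 of 30 tested genes, with 0 higher (median −0.60). These counts were 27 and 0 without control 5 and LPS 3. Acadm, the medium-chain dehydrogenase, had 662, 593, 526, 554 and 573 CPM in control and 227, 367, 304, 318 and 332 CPM in LPS (−0.91 ± 0.13, adjusted p = 7.52e-06). Acsl1, which activates fatty acids, fell by 1.09 ± 0.15. Cpt1a, the entry step to mitochondria, had 302 to 800 CPM in control and 228 to 443 CPM in LPS and overlaps, and its call (−0.78 ± 0.26, adjusted p = 0.0189) was lost in 4 omissions of 1 library. Fgf21, a fasting hormone of the liver, was not called (0.16, adjusted p = 0.805).

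**Figure D4:**
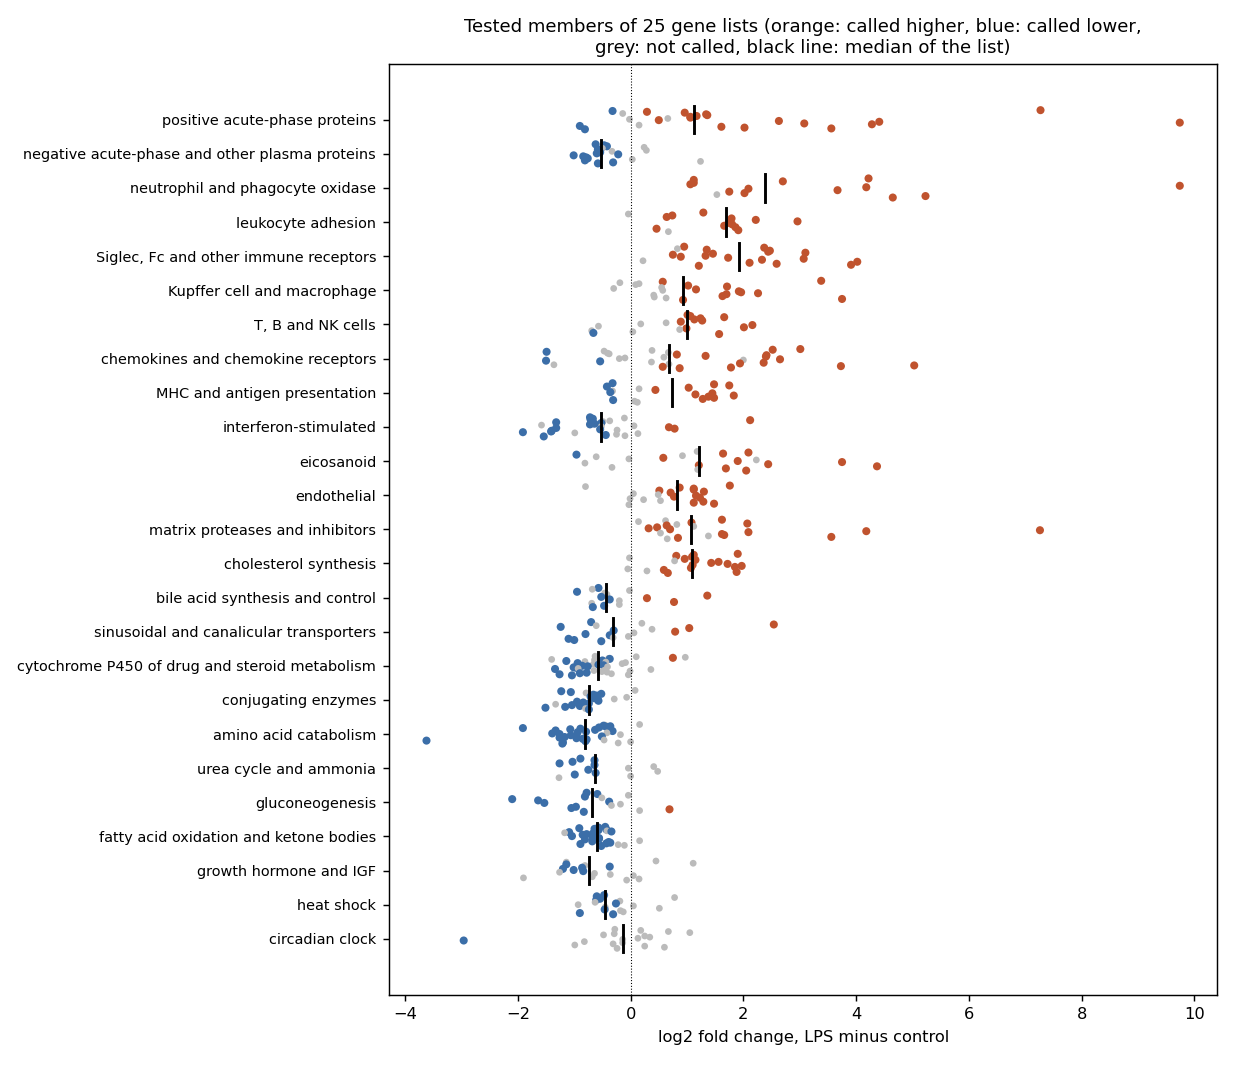
Log2 fold change (LPS minus control) of the tested members of 25 gene lists; each point is 1 gene, orange if called higher, blue if called lower and grey if not called, and the black line is the median of the list. Medians of leukocyte lists and cholesterol synthesis lie to the right of 0, medians of metabolic lists to the left, and the chemokine and MHC lists spread to both sides.

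Growth hormone and IGF genes had 6 of 18 called lower and 0 higher (median −0.74). Igf1 had 2436 to 3136 CPM in control and 1263 to 1629 CPM in LPS (−1.01 ± 0.16, adjusted p = 1.95e-05), and Ghr, the growth hormone receptor, had 630 to 777 and 358 to 418 CPM (−0.86 ± 0.11, adjusted p = 1.42e-06). In neither gene did the groups overlap. Igfals, which stabilises circulating Igf1, fell by 0.84 ± 0.23. Socs2 and Cish, targets of growth hormone, were not called (−1.90 and −1.14, adjusted p = 0.0666 and 0.422).

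Stress genes moved in both directions. Of 25 ER chaperone and unfolded protein response genes 12 were called higher and 6 lower (median 0.27). The chaperones Hsp90b1, Hyou1 and Dnajb11 rose by 0.72 ± 0.14, 0.82 and 0.91 ± 0.18, while Hspa5 was not called (0.27 ± 0.14, adjusted p = 0.125). The regulators Xbp1, Atf4 and Trib3 fell by 0.91, 0.39 and 1.88 ± 0.37. Of 17 heat shock genes of the cytosol and mitochondria 8 were called lower and 0 higher (median −0.45), such as Hsph1 (−0.90 ± 0.20). Among 21 antioxidant genes 5 were called higher and 7 lower (median −0.06), and with total count scaling 7 higher and 4 lower (median 0.07). Sod2, the mitochondrial superoxide dismutase, had 76 to 87.3 CPM in control and 461 to 600 CPM in LPS (2.67 ± 0.32, adjusted p = 9.89e-07), whereas Cat, catalase, fell by 1.08 ± 0.16 and Prdx1 by 0.51 ± 0.08. The quinone reductase gene Nqo1 had 23.5 to 41.8 CPM in control and 35.2 to 101 CPM in LPS (adjusted p = 0.0127), and when LPS 1 was left out it was not called (adjusted p = 0.0745).

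Smaller sets held calls in both directions, beside 36.8% called among all genes. Mt2A, a metallothionein that binds zinc, had 15 to 54.5 CPM in control and 98.5 to 180 CPM in LPS (2.27 ± 0.51, adjusted p = 0.000905), and Mt1m rose by 1.96 ± 0.57 (adjusted p = 0.00712), whereas Mt1 was not called (0.14). Metallothionein copies are near-identical, so counts of single members are uncertain. Complement had 8 of 28 called higher and 3 lower, among them Cfb, of the alternative pathway (0.85 ± 0.13), and C9, of the membrane attack complex, which had 1586 to 1928 CPM in control and 2946 to 6064 CPM in LPS. Coagulation had 11 of 28 called higher and 9 lower, and among the anticoagulant genes Pros1 fell by 0.67 ± 0.10 and Tfpi rose by 0.95 ± 0.16. Of 30 cell cycle genes 6 were called higher and 1 lower, beside 18.6% higher and 18.1% lower among all genes, with 4 and 1 without control 5 and LPS 3 and 2 and 0 with a replicate block. Mki67 overlapped (0.39 ± 0.39, adjusted p = 0.457). Apolipoprotein genes had 7 of 22 called lower and 3 higher, and with total count scaling 6 and 6. Retinoid genes had 5 of 16 called lower and 1 higher. The shares of complement and retinoid genes called in either direction were near that of all genes.

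Single genes with large falls came from several pathways. Tsku, a secreted proteoglycan, had 669, 305, 347, 451 and 332 CPM in control and 5.27, 35.1, 61, 25.5 and 46.3 CPM in LPS (−3.60 ± 0.88, adjusted p = 0.00173). Zfp354a, a zinc finger protein, fell by 2.95 ± 0.77, Nrep by 2.45 ± 0.52 and Hacl1, a peroxisomal lyase, by 2.28 ± 0.44, each with no overlap of the groups. Obp3 was called lower (−2.12 ± 0.82, adjusted p = 0.0409), and this call was lost in 7 omissions of 1 library.

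Core clock genes differed widely within each group. Of 18 tested genes 1 was called, Noct, a deadenylase-like phosphatase with a daily rhythm, which had 9.64, 9.12, 3.81, 15.5 and 4.3 CPM in control and 0.634, 0.779, 1.18, 2.1 and 0.718 CPM in LPS (−2.96 ± 0.86, adjusted p = 0.0073). Arntl, the core activator of the clock, had 6.24, 6.44, 31.2, 4.2 and 13.4 CPM in control and 2.61, 3.28, 30.2, 3.08 and 11.3 CPM in LPS (−0.28 ± 0.82, adjusted p = 0.816). Dbp, which is expressed in opposite phase to Arntl, had 92.1, 80.8, 5.26, 92.2 and 39.3 CPM in control and 101, 116, 6.92, 123 and 46.2 CPM in LPS. In each group the same pair of livers had the most Arntl and the least Dbp, control 5 and control 7, and LPS 3 and LPS 5. Npas2 and Clock were likewise highest in these 4 livers, and Per3, Tef and Ciart lowest. Other clock genes did not keep the pairing in both groups. Nr1d1 had 109 CPM in LPS 5 and 90.8 CPM in LPS 4, and Per1 was lowest in LPS 1 (7.05 CPM). Per2 had 7.4 CPM in control 4 and 8.52 CPM in control 7. Control 5 and LPS 3, the libraries with pancreas RNA, were thus also the extremes of Arntl, Npas2, Dbp and Per3, and the labels state no hour of collection.

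**Figure D5:**
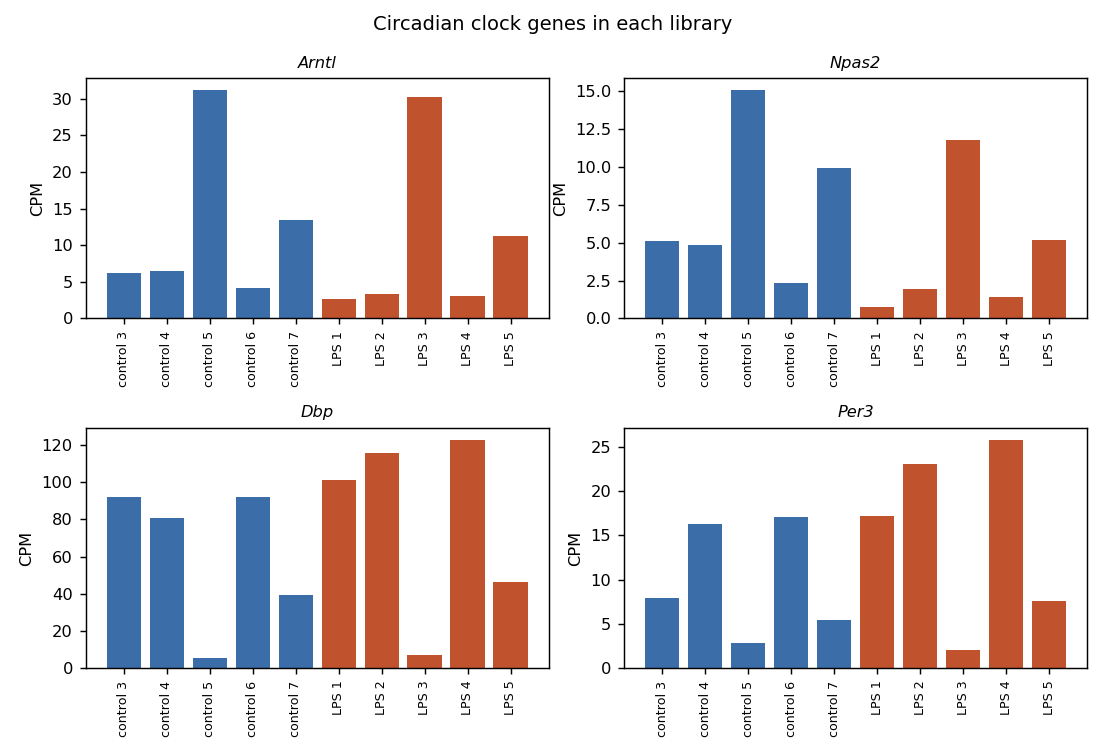
CPM of Arntl, Npas2, Dbp and Per3 in each of the 10 libraries (bars, 1 per library; blue, control; orange, LPS). Control 5 and LPS 3 have the highest Arntl (31.2 and 30.2 CPM) and the lowest Dbp (5.26 and 6.92 CPM) of their groups.

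Some calls rested on control 5 or LPS 3. Of 27 skeletal muscle markers 13 passed the filter on low counts and 7 were called higher with all libraries, and 0 of the 10 testable ones were called without the pair. Ttn, titin, had 25.3 CPM in LPS 3 and at most 1.06 CPM elsewhere, and went from 4.22 ± 1.36 (adjusted p = 0.0147) to 1.26 (adjusted p = 0.565). In the bile duct list, 4 of 12 were called lower and 1 higher with all libraries, and 0 lower and 1 higher without the pair. Krt19 went from −1.91 ± 0.56 (adjusted p = 0.0075) to −0.21 (adjusted p = 0.73). The opposite held for Reg3g, an antibacterial lectin, with 8.28 CPM in control 5 and 0 CPM in the other controls against 10.7, 2.13, 2.48, 0.351 and 1.98 CPM in LPS, which was called without the pair (adjusted p = 0.000516) and not with it (adjusted p = 0.434). Dmbt1, a mucosal scavenger receptor, had 121 CPM in control 5 and 16.7 to 25.3 CPM in the other controls, and went from 1.30 ± 0.53 (adjusted p = 0.051) to 2.32 (adjusted p = 0.00115). No pancreas or erythroid marker was called with all libraries. Without the pair Ctrc was called higher (adjusted p = 0.0385) and Cpb1 lower (adjusted p = 0.0348) of 6 testable pancreas markers. They had at most 0.633 and 1.07 CPM in the remaining livers. Epb42, a red cell membrane protein, was then the 1 called higher of 11 erythroid markers (adjusted p = 0.0444). Erythroid markers summed to 3563 CPM in control 5 and 2934 CPM in LPS 5, and to 429 to 923 CPM in the other livers. The fit without the pair left out control 5 and kept LPS 5.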

How the data were processed

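RNA of 38 rat livers was sequenced, and 10 libraries are compared here. The authors deposited raw counts, whole read pairs per gene name from featureCounts 2.0.6 with an rn6 RefSeq annotation and no strand option, per the file headers, so a gene and its antisense partner cannot be told apart. STAR, RSEM and the build mRatBN7.2 are named in the submitters' processing notes. The deposited TPM, by the authors, equal length-scaled counts within 0.0495% and enter no test.

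After filterByExpr (minimum count 10, minimum total 15), edgeR 4.0.16 (R 4.3.3) gave the tests (quasi-likelihood, two-sided, trimmed mean of M values, 1 mean per group over 38 libraries, Benjamini-Hochberg over 14786 genes, threshold 0.05). Standard errors were derived from the log2 fold change and its F statistic. The test was checked on simulated counts. Alternatives were other samples, scaling and filters, DESeq2 1.42.0, limma 3.58.1 voom, a replicate block and leaving out libraries. P-values set a difference against a spread estimated over all 38 libraries, most of them from rats given extracts. Counting intervals cover counting error only.

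The comparison and gene lists were chosen with earlier results of these data known. Named genes were the 12 called, non-overlapping genes with the highest and the 12 with the lowest fold change at a mean of at least 5 CPM, up to 4 called members per list by p-value, a set of anchor genes, and up to 10 calls lost and 10 gained without control 5 and LPS 3. Other genes named were chosen after their values were seen. Coordinates of genes are rn6. Of 8 promoters asked for, 5 had 1 entry in the RefSeq table. Some named genes are not reported here.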

Additional observations from a re-analysis of the deposited data

Results flagged for a closer look

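Each value here belongs to a library that lay far from the other 4 of its group by Dixon's criterion, applied to CPM without a log scale. The criterion flags about 1 in 20 groups of normally distributed chance values. Some genes were named because leaving out control 5 and LPS 3 changed their call, or as pancreas or muscle markers. The flags of control 5 and LPS 3 therefore cannot be read against that rate. LPS 1 stood above its group for C9 (6064 CPM), Cfb (4959 CPM), Cxcl1 (5.98 CPM), Dnajb11 (257 CPM), Fgb (25162 CPM), Hp (30830 CPM), Kng1 (5586 CPM), Reg3g (10.7 CPM), Socs3 (66.9 CPM) and Wfdc21 (167 CPM). LPS 2 stood above its group for Hpgd (1.9 CPM) and Tfpi (27.8 CPM). LPS 3 stood above its group for Acta1 (156 CPM), Atp2a1 (44.7 CPM), Cxcl13 (36.8 CPM), LOC108348047 (2.29 CPM), Prss1 (271 CPM), Tnnc1 (6.18 CPM), Tnnt3 (28.8 CPM) and Ttn (25.3 CPM). LPS 4 stood above its group for Isg15 (10.9 CPM). LPS 5 stood above its group for Bhmt (1397 CPM), Cd59 (68.9 CPM) and Slco1a1 (193 CPM). LPS 5 stood below its group for Tlr4 (1.35 CPM). Control 3 stood above its group for Cdo1 (1587 CPM), Prdx1 (729 CPM) and Scp2 (1434 CPM). Control 5 stood above its group for Arhgef28 (2.19 CPM), Col1a1 (68 CPM), Csf3r (2.09 CPM), Dmbt1 (121 CPM), Epcam (26.3 CPM), Fcgbp (9.49 CPM), Hpgd (1.53 CPM), Kcnn4 (2.47 CPM), Kng1 (598 CPM), Krt19 (37.5 CPM), Krt7 (9.12 CPM), Lcn2 (4.98 CPM), Lilrb4 (2.98 CPM), Myo7b (9.72 CPM), Pla2g7 (2.28 CPM), Ppp1r1b (2.51 CPM), Prss1 (445 CPM), Reg3g (8.28 CPM) and S100a9 (3.58 CPM). Control 5 stood below its group for Hsd17b4 (457 CPM), Pc (504 CPM) and Slco2b1 (195 CPM). Control 7 stood above its group for Alb (128705 CPM), Cyp2c11 (1986 CPM) and Ifi27 (486 CPM).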

How the results depend on the processing

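Of 210 named and called genes, 177 kept their call in all 19 alternatives and 33 lost it in 1 or more, 19 of them when 1 library was left out. Many were named for small p-values and some for a call lost without control 5 and LPS 3, so these counts do not measure stability. Of all 5435 calls, 64.8% were kept with a replicate block and 81.5% without control 5 and LPS 3. With a replicate block 3565 genes were called. The number of genes called higher was then 1830 and that of genes called lower 1735, with 840 risen and 210 fallen 2-fold or more, and 18 named genes lost their call, Alb among them (adjusted p = 0.118). The labels do not say whether the numbers pair animals. Deviations of same-numbered livers had correlations of -0.247, 0.021 and -0.147 for numbers 3, 4 and 5. Numbers 3 and 5 include LPS 3 or control 5, and differently numbered livers were not compared. These correlations therefore cannot decide whether the numbers pair animals. With total count scaling the number of genes called lower was 1428. Leaving out 1 library gave 4711 to 5419 calls, DESeq2 5606, limma voom 5468, no filter on low counts 4981, and the 10 libraries alone 5077, or 4394 without control 5 and LPS 3, a setting chosen after seeing the data. Krt7 reversed to 0.12 without control 5 and LPS 3, and over single omissions it ranged from -3.99 (without LPS 3) to 0.65 (without control 5).

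Without control 5 and LPS 3 the median log2 fold change moved to 0.96 for chemokines, 3.30 for neutrophil genes and 0.24 for bile duct genes. It moved to 1.68 for eicosanoid genes, 0.29 for exocrine pancreas, 0.50 for skeletal muscle, 1.33 for erythroid and -2.45 for adipose genes. The erythroid value kept LPS 5, with an erythroid sum of 2934 CPM. Of 4 tested adipose genes 0 were called in either fit. The adipose list summed to 8.89 to 17.8 CPM in control and 10.3 to 16.8 CPM in LPS, which overlap. The cause of these moves was not tested beyond the marker levels given. Low counts limit cytokines such as Il6 and Tnf, and n = 5 per group limits all tests.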
